A study of Mus musculus with 32 samples.

Results

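The genes described here are 9 genes of peroxisomal fatty acid oxidation, chosen by name from the 24646 genes measured in each tissue. They are *Abcd2* and *Abcd3*, *Ehhadh* and *Hsd17b4*, *Acaa1a* and *Acaa1b*, *Crot*, *Cat* and *Pex11a*, and all 9 had a value on every array. Liver, epididymal white fat (eWAT), inguinal white fat (iWAT) and brown fat (BAT) were compared between *Gpr146* wild-type (WT) mice and mice lacking *Gpr146*, a G protein-coupled receptor, in the whole body (KO). All groups were male littermates on the C57BL/6J background, 20 weeks old, that had eaten a high-fat diet (HFD) for 3 months and were fasted overnight before collection. Each tissue had 4 WT and 4 KO mice with 1 Affymetrix Mouse Gene 2.1 ST array per mouse, 32 arrays in all. The receptor was missing from every cell type and every group ate the HFD, so a change in a tissue need not have arisen there, and a diet effect could not be measured.

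Peroxisomes shorten very-long-chain, branched and dicarboxylic fatty acids that mitochondria handle poorly. Acyl-CoAs enter through ABC transporters of the ABCD family, are oxidised to an enoyl-CoA with release of hydrogen peroxide, pass through a bifunctional enzyme and a thiolase, and leave as carnitine esters for the mitochondria. Several of these genes are classical targets of PPARα, the nuclear receptor that fatty acids activate in the fasted liver, and the organelles themselves multiply by division, in which PEX11 proteins take part.

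*Gpr146* itself checked the labels. In liver it lay between 6.17 and 6.32 in WT mice and between 4.26 and 4.63 in KO mice on the log2 scale. Its KO values were below all WT values in all 4 tissues, with log2 changes of -1.77 in liver, -1.53 in eWAT, -1.55 in iWAT and -1.16 in BAT. The titles of the liver KO samples name WT, while their other labels say KO, and the low *Gpr146* signal went with the latter. Arrays of iWAT differed in lymphocyte content, with a mean over 6 B-cell markers of 8.05, 8, 3.14 and 3.13 in WT mice 1 to 4 and 3.41, 7.61, 3.42 and 5.86 in KO mice 1 to 4. Arrays of BAT differed in skeletal muscle, with a mean over 6 muscle markers of 2.90, 6.50, 7.62 and 2.88 in WT mice and 2.97, 7.65, 3.74 and 2.85 in KO mice. Whole pieces of tissue were measured, so fewer cells of a type and less RNA per cell cannot be told apart.

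The sequences before a start site of the genes that moved with genotype in eWAT are shown as context. RefSeq (assembly GRCm38.p6) gave 8 start-site windows, each from 250 bases before to 50 bases after a start, for 7 of the 9 genes. The first 250 bases are printed 5′ to 3′ on the strand of the gene for *Pex11a*, *Ehhadh* and *Acaa1a*, the 3 genes called in eWAT, and for *Acaa1b*, the close relative of *Acaa1a*. They lie at chr7:79743132-79743381 (minus strand), chr16:21787835-21788084 (minus), chr9:119341044-119341293 (plus) and chr9:119157094-119157343 (minus). The *Acaa1a* window precedes a start inside the span of that gene, which the same annotation begins at position 119341028, so it is upstream of that start and not of the whole gene. Capitals mark CCAAT, a common promoter element, on either strand.
Pex11a: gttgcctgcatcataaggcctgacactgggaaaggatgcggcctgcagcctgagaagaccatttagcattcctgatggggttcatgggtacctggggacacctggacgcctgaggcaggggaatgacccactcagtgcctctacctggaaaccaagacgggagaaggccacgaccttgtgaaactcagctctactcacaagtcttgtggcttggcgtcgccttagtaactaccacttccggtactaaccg
Ehhadh: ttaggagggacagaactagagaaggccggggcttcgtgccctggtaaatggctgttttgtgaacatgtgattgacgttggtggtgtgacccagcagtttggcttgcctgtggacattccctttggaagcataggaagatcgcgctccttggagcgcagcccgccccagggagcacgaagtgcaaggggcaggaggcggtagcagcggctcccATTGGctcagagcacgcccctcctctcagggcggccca
Acaa1a: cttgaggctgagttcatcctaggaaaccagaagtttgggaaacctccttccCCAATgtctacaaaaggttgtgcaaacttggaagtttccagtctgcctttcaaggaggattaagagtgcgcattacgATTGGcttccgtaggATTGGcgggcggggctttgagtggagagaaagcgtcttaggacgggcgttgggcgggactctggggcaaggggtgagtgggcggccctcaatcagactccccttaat
Acaa1b: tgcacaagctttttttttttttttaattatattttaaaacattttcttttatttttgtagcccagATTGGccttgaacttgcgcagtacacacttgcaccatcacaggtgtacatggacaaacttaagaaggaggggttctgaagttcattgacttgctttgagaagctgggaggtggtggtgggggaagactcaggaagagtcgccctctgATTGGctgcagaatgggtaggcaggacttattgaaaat
The CCAAT letters were found in 5 of the 8 windows (*Acaa1a*, *Acaa1b*, *Cat*, *Crot* and *Ehhadh*) and in 37.4% of 32851 mouse windows of the same length. The nuclear receptor half-site AGGTCA was found on either strand in 1 window, that of *Cat*, at position -204 relative to the start, and in 16.3% of all windows. A pair of half-sites AGGNCA separated by 1 base, the arrangement that PPAR receptors bind together with RXR, was in none of the 8 windows and in 0.381% of all. PPAR sites often lie outside such windows, so these counts only describe the letters shown. A global alignment of the printed stretches of *Acaa1a* and *Acaa1b* had 148 identical bases over 288 columns, gaps included (51.4%).

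Levels in WT mice give the starting point in each tissue. Each tissue was normalised as a table of its own, so levels between tissues are approximate, and an order is stated only with the check of normalising all 32 arrays together. *Ehhadh*, *Pex11a*, *Acaa1b* and *Crot* were highest in liver under both. *Ehhadh* averaged 8.61 ± 0.46 (SD, n = 4) in liver, 7.63 ± 0.59 in BAT, 5.43 ± 0.41 in iWAT and 5.07 ± 0.20 in eWAT, where liver and BAT overlapped, as did both white fats. *Pex11a* averaged 7.44 ± 0.14, 6.42 ± 0.06, 5.71 ± 0.46 and 5.16 ± 0.07 in the same order, with no overlap between neighbours. The thiolase gene *Acaa1b* averaged 9.11 ± 0.19 in liver and between 4.10 and 5.24 in the 3 fat depots, and *Crot* 9.75 ± 0.21 in liver and between 6.48 and 7.01 in fat.

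*Abcd2* had the opposite order, with 9.94 ± 0.28 in iWAT, 9.61 ± 0.10 in eWAT, 8.81 ± 0.17 in BAT and 5.89 ± 0.59 in liver, and the white fats overlapped. *Acaa1a* was highest in liver at 7.32 ± 0.19, and its fat levels lay between 4.95 and 5.26, an order of the white fats that turned with joint normalisation. *Abcd3* was 9.91 ± 0.16 in liver and 9.82 ± 0.10 in BAT, which overlapped and changed places with joint normalisation, against 7.09 ± 0.11 in eWAT and 6.97 ± 0.22 in iWAT. *Hsd17b4* ranged from 8.23 in iWAT to 9.54 in liver and *Cat* from 10.23 in BAT to 10.99 in liver, and the top place of both genes also changed with joint normalisation. Neighbours in the order also overlapped between eWAT, BAT and iWAT for *Acaa1b*, between BAT, iWAT and eWAT for *Acaa1a*, between BAT and iWAT for *Crot*, between eWAT and iWAT for *Abcd3*, and between eWAT, iWAT and BAT for *Cat*.

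**Figure D1:**
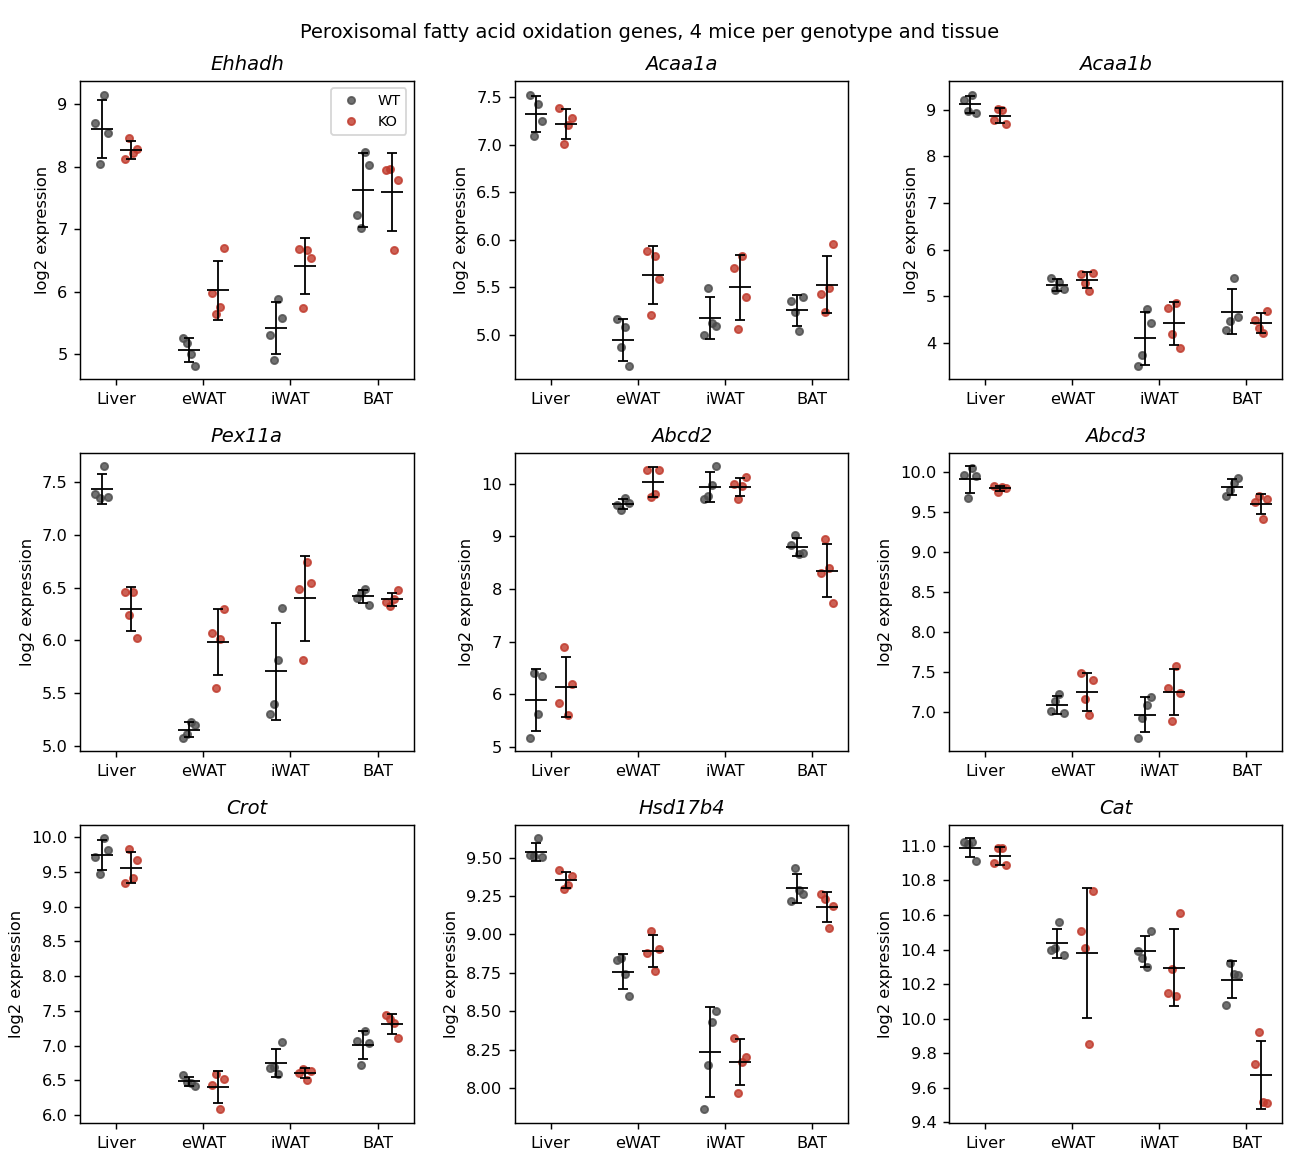
Normalised log2 expression (y axis) of each of the 9 genes by tissue (x axis), with 1 point per mouse, grey for WT and red for KO, and black bars for the mean ± SD of 4 mice. The y axes do not start at 0 and differ between genes, and tissues were normalised separately. *Pex11a* is lower in KO liver (6.30 against 7.44) and higher in KO eWAT (5.98 against 5.16).

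In liver, 1 of the 9 genes fell in KO mice and none rose. The gene was *Pex11a*, which encodes a membrane protein that promotes peroxisome division. Across the liver table, 0.661% of genes passed an adjusted p of 0.05 in limma (a linear model with variances shared across genes), 0.499% in the downward direction. *Pex11a* read 7.39, 7.35, 7.65 and 7.36 in WT mice 1 to 4 and 6.45, 6.24, 6.46 and 6.03 in KO mice 1 to 4. All KO mice were below all WT mice, and the gap between the groups was wider than the spread within either. The log2 change was -1.14 (SE 0.11), 2.21-fold lower in KO mice (limma, adjusted p = 0.00173; exact permutation p = 0.0286, the smallest that 4 against 4 mice allow). It kept passing when each of the 8 arrays was left out in turn, with adjusted p between 0.00236 and 0.0105, and missed the threshold with the methods' t-test after adjustment (0.140), by which 0.00811% of all genes passed.

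The enzymes of the liver pathway did not pass. *Hsd17b4*, the D-bifunctional enzyme that processes branched and very-long-chain substrates and bile acid precursors, read 9.52, 9.51, 9.63 and 9.51 in WT mice and 9.42, 9.30, 9.32 and 9.38 in KO mice. Its groups did not overlap, with a log2 change of -0.19 (SE 0.07, adjusted p = 0.273). *Ehhadh*, the L-bifunctional enzyme, changed by -0.33 (adjusted p = 0.488) with WT values from 8.04 to 9.16 and KO values from 8.13 to 8.46, so the KO mice lay inside the WT range. The thiolase genes *Acaa1a* and *Acaa1b* changed by -0.11 (adjusted p = 0.744) and -0.25 (adjusted p = 0.370). *Abcd3*, *Crot*, which makes medium-chain carnitine esters for export, and *Cat*, the catalase that breaks down the peroxide, changed by -0.11, -0.18 and -0.05. *Abcd2* changed by 0.25 (adjusted p = 0.791), and by -0.01 without KO mouse 2, which had the highest *Abcd2* value of all liver arrays, 6.91.

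Of the 9 liver changes 8 were negative, with a median of -0.18 against 0.01 over all genes of the table. In 2 genes, *Pex11a* and *Hsd17b4*, all KO values were below all WT values, as in 4.16% of all genes. The hepatocyte markers were high in every liver (mean of 6 markers from 11.03 to 11.32). The mean of 8 macrophage markers ranged from 3.97 to 4.32 in WT and from 3.44 to 4.18 in KO livers, and none of the 8 passed. The mean of 6 adipocyte markers was between 3.24 and 3.63 in WT livers and 2.91, 3.37, 2.84 and 2.90 in KO livers 1 to 4, and 1 of the 6, *Cfd*, fell by 1.12 (adjusted p = 0.0242). KO mouse 2 had a macrophage mean of 4.18 and an adipocyte mean of 3.37, each within the WT range, and a *Pex11a* value of 6.24. The part of either marker list in the *Pex11a* result was not tested, and 1 mouse cannot show it.

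In eWAT, 3 of the 9 genes rose in KO mice and none fell. They were *Ehhadh*, *Acaa1a* and *Pex11a*, a bifunctional enzyme, a thiolase and the division factor, and they rose between 1.60-fold and 1.93-fold. In this tissue 15.2% of all genes passed, 4.57% of all genes upward and 10.7% downward. With quantile normalisation the share of upward calls among all called genes went from 30.0% to 48.9%, and 5 of the 9 genes rose and none fell, against 7.43% of all genes upward. With the methods' t-test after adjustment none of the 9 passed, against 0.154% of all genes.

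*Pex11a* read 5.08, 5.11, 5.23 and 5.20 in WT eWAT and 6.08, 5.55, 6.02 and 6.30 in KO eWAT. The WT mice were tightly grouped and all KO mice were above them, with KO mouse 2 closest. The log2 change was 0.83 (SE 0.14, adjusted p = 0.0103), and it passed in all 8 fits that left out 1 array, with adjusted p between 0.000113 and 0.0388.

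*Ehhadh* read 5.27, 5.18, 5.01 and 4.82 in WT eWAT and 5.98, 5.65, 5.76 and 6.71 in KO eWAT. All KO mice were again above all WT mice, KO mouse 4 most and KO mouse 2 least. The log2 change was 0.95 (SE 0.21, adjusted p = 0.0192). It missed the threshold without WT mouse 2 (adjusted p = 0.0525), WT mouse 3 (0.0524) or WT mouse 4 (0.0607).

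*Acaa1a*, which cleaves the shortened chain from the ketoacyl-CoA, read 5.17, 4.88, 5.08 and 4.67 in WT eWAT and 5.88, 5.21, 5.83 and 5.59 in KO eWAT. The groups did not overlap, but KO mouse 2 lay just above WT mouse 1. The log2 change was 0.68 (SE 0.16, adjusted p = 0.0236), and it missed the threshold without WT mouse 2 (adjusted p = 0.0721), WT mouse 4 (0.0717), KO mouse 1 (0.0623), KO mouse 3 (0.0541) or KO mouse 4 (0.0555).

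*Acaa1b* encodes a peroxisomal thiolase closely related to that of *Acaa1a* and changed by 0.10 in eWAT (adjusted p = 0.560), with WT values from 5.13 to 5.39 and KO values from 5.12 to 5.50. The difference of change between both thiolase genes in eWAT was 0.58 (exact permutation p = 0.0286, 0.114 after adjustment over the 4 tissues). In liver, iWAT and BAT that difference was 0.14, 0.01 and 0.52, with exact permutation p of 0.429, 1 and 0.114. The 2 genes are close copies, so the probes of one may have read transcripts of the other, and the split between them is uncertain.

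*Abcd2*, a transporter of very-long-chain acyl-CoAs, read 9.61, 9.50, 9.73 and 9.63 in WT eWAT and 10.27, 9.75, 9.80 and 10.27 in KO eWAT. Its groups did not overlap, but the log2 change of 0.41 (SE 0.14) did not pass (adjusted p = 0.0712). It passed without KO mouse 2 (0.50, adjusted p = 0.0208), with array weights (0.53, 0.00881) and with quantile normalisation (0.50, 0.0250). The remaining genes overlapped between groups. *Abcd3*, *Hsd17b4* and *Cat* changed by 0.16, 0.14 and -0.06, and *Crot* by -0.08, or by 0.10 with quantile normalisation, under which *Hsd17b4* passed (0.25, adjusted p = 0.0488).

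Over the 9 genes the median change in eWAT was 0.16, against 0.03 over all genes, and 0.33 with quantile normalisation. In 4 genes all KO values were above all WT values, as in 8.63% of all genes. Marker RNA of macrophages and adipocytes moved with the genotype in this tissue. All 8 macrophage markers fell, by 1.32 to 2.69, and their mean was between 8.18 and 8.41 in WT mice and 5.52, 7.82, 6.22 and 5.70 in KO mice 1 to 4. KO mouse 2, nearest to WT in that mean, also had the lowest KO value of *Ehhadh*, *Acaa1a*, *Pex11a* and *Abcd2*. Of 6 adipocyte markers 5 rose, from *Fabp4* (0.24, adjusted p = 0.0448) and *Adipoq* (0.51, adjusted p = 0.0144) to *Cfd* (2.32, adjusted p = 0.00877), and *Lep* fell by 0.98 (adjusted p = 0.0137). The part of this shift in the rise of the peroxisomal genes was not tested.

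In iWAT none of the 9 genes passed, and 0% of all genes did. The deleted gene *Gpr146* did not pass there either, so a gene without a call may still have changed. At an unadjusted p below 0.05, 2 of the 9 genes passed in limma, *Ehhadh* and *Pex11a*, as did 15.4% of all genes, and 1 passed by the methods' t-test, against 12.8% of all genes. *Ehhadh* read 5.32, 4.92, 5.89 and 5.58 in WT iWAT and 6.69, 5.74, 6.67 and 6.53 in KO iWAT. KO mice 1, 3 and 4 were above all WT mice, and KO mouse 2, which had lymphocyte markers near those of WT mice 1 and 2, fell between WT mice 3 and 4. The log2 change was 0.98 (SE 0.26, adjusted p = 0.221).

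*Pex11a* in iWAT read 5.31, 5.40, 5.82 and 6.31 in WT mice and 6.49, 5.82, 6.74 and 6.55 in KO mice. Again KO mice 1, 3 and 4 were above all WT mice, with KO mouse 2 level with WT mouse 3, and the log2 change was 0.69 (SE 0.26, adjusted p = 0.276). Arrays with a B-cell mean above 5 counted as lymphocyte-rich, among them KO mouse 4 with 5.86. Its mean over 6 T-cell markers was 4.49, against 6.91 to 7.26 in the other lymphocyte-rich arrays and 3.40 to 4.03 in the lymphocyte-poor ones. With lymphocyte-rich and lymphocyte-poor arrays as a block, the changes of *Ehhadh* and *Pex11a* had adjusted p of 0.0594 and 0.0882. Without the 4 lymphocyte-rich arrays, which leaves 2 mice per genotype, *Ehhadh* changed by 0.94 (adjusted p = 0.0338) and *Pex11a* by 0.55 (adjusted p = 0.171), where 3.72% of all genes passed. Within the lymphocyte-rich arrays alone they changed by 1.02 and 0.83 (adjusted p = 0.645 for each). Without KO mouse 2 alone *Ehhadh* passed (1.20, adjusted p = 0.0462), as did 0.921% of all genes.

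The other 7 genes in iWAT had adjusted p of 0.401 or more. *Acaa1a* and *Acaa1b* changed by 0.33 and 0.32, *Abcd3* by 0.28, *Crot* by -0.15, *Cat* by -0.09, *Hsd17b4* by -0.07 and *Abcd2* by 0.00. *Crot* and *Hsd17b4* turned positive with quantile normalisation (0.03 and 0.06), and *Abcd2* was -0.02 with array medians made equal. The median over the 9 genes was 0.28, against 0.02 over all genes. None of the 9 had groups that did not overlap, against 8.15% of all genes. Each of the 8 macrophage markers was lower in KO iWAT without passing, and their mean was between 6.03 and 7.12 in WT and between 5.26 and 6.12 in KO mice. The mean of 5 brown adipocyte markers was between 3.40 and 4.14 in WT iWAT and 4.52, 3.93, 4.74 and 4.51 in KO mice 1 to 4, so that KO mice 1, 3 and 4 were above all WT mice, as for *Ehhadh* and *Pex11a*. Changes of single brown markers ran from -0.56 for *Ucp1* to 2.51 for *Cox8b* and none passed. The part of either marker list in these values was not tested.

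In BAT none of the 9 genes passed, against 0.0284% of all genes. As in iWAT, *Gpr146* itself did not pass, so a missing call does not show that a gene was unchanged. At an unadjusted p below 0.05, 3 passed in limma (*Cat*, *Abcd3* and *Crot*), as did 12.7% of all genes, and 2 by the methods' t-test (*Cat* and *Abcd3*), against 11.4% of all genes. *Cat* read 10.08, 10.32, 10.26 and 10.25 in WT BAT and 9.74, 9.93, 9.52 and 9.51 in KO BAT. All KO mice were below all WT mice, with a log2 change of -0.55 (SE 0.11, adjusted p = 0.112). The change was -0.50 with muscle-rich arrays as a block (adjusted p = 0.17) and -0.58 without those 3 arrays (adjusted p = 0.522).

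*Abcd3*, also called PMP70, which imports branched and dicarboxylic acyl-CoAs, read 9.71, 9.78, 9.86 and 9.93 in WT BAT and 9.63, 9.71, 9.42 and 9.67 in KO BAT. Its KO values were below all WT values by a narrow margin, with a log2 change of -0.21 (SE 0.09, adjusted p = 0.364). *Cat* and *Abcd3* were the 2 of 9 genes with KO below WT throughout, as were 3.92% of all genes. *Crot* changed by 0.30 (SE 0.12, adjusted p = 0.313), with WT values from 6.72 to 7.22 and KO values from 7.11 to 7.44.

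*Abcd2*, *Acaa1a*, *Acaa1b* and *Hsd17b4* changed in BAT by -0.45, 0.27, -0.25 and -0.12. *Pex11a* hardly varied, from 6.34 to 6.48 in WT and from 6.32 to 6.47 in KO mice, and its change was -0.03 with a 95% interval from -0.20 to 0.14, or 0.04 with quantile normalisation. *Ehhadh* varied most, from 7.02 to 8.24 in WT and from 6.67 to 7.96 in KO mice, and changed by -0.04, or by 0.02 with quantile normalisation. The median over the 9 genes was -0.12, against 0.00 over all genes. The mean of 5 brown adipocyte markers was between 8.89 and 9.15 in WT and between 8.34 and 8.66 in KO BAT, none of the 5 passed, and their part in the *Cat* values was not tested.

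**Figure D2:**
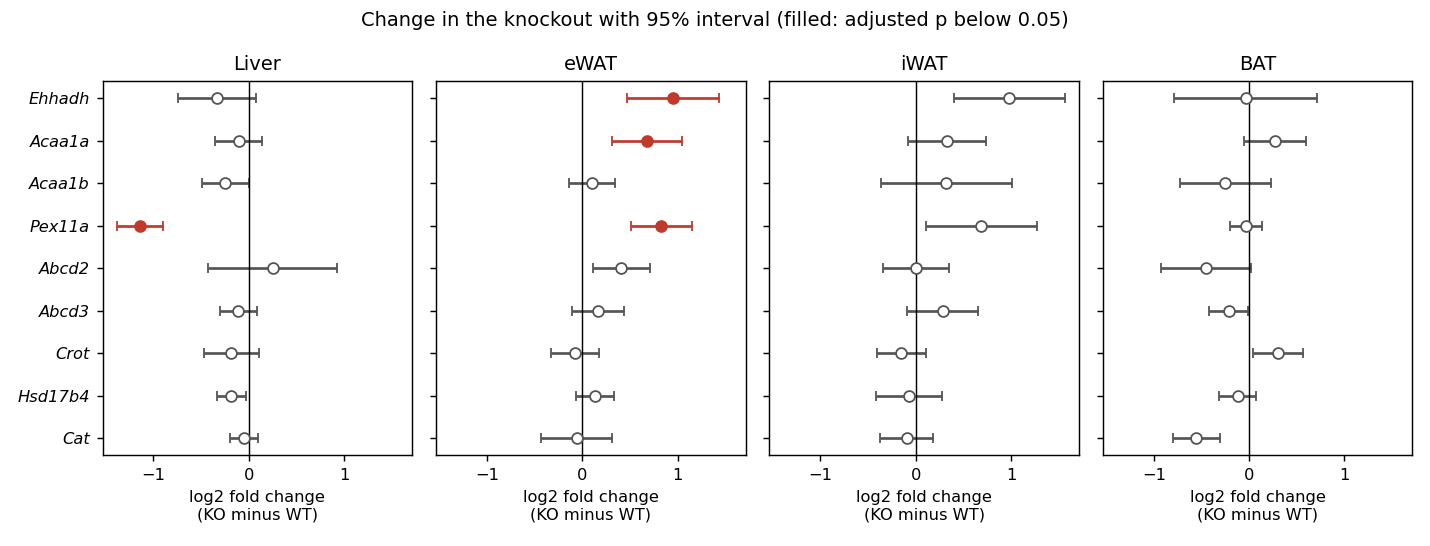
Log2 fold change, KO minus WT (x axis), of the 9 genes in each tissue, with 95% intervals from limma on 4 mice per group and filled red points for an adjusted p below 0.05. *Pex11a* is filled in liver (-1.14) and eWAT (0.83), on opposite sides of 0, and *Ehhadh* (0.95) and *Acaa1a* (0.68) in eWAT.

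Whether a gene changed differently in a pair of tissues was tested on the difference between tissues within each mouse number, KO against WT. Between liver and eWAT, 3 of the 9 genes passed, against 8.37% of all genes. The change of *Pex11a* was lower in liver by 1.97 on the log2 scale, a difference of -1.97 (SE 0.19, adjusted p = 0.00254). *Ehhadh* differed by -1.29 (SE 0.29, adjusted p = 0.0241) and *Acaa1a* by -0.78 (SE 0.13, adjusted p = 0.00907). These are the 3 genes called in eWAT, and the test uses the same eWAT values, so it is no separate result about liver. In liver itself *Ehhadh* and *Acaa1a* did not pass (limma, adjusted p = 0.488 and 0.744). With single arrays left out, 2 or 3 of the 9 genes passed between liver and eWAT, against 918 to 3130 of all 24646 genes.

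*Pex11a* also differed between liver and BAT, by -1.11 (SE 0.14, adjusted p = 0.0165), the 1 gene of 9 to pass against 0.0893% of all genes, and it passed in none of the fits without WT mouse 2, 3 or 4 or without KO mouse 1 or 3. Between eWAT and BAT it differed by 0.86 (SE 0.14, adjusted p = 0.0107), again 1 of 9 against 6.93% of all genes. Without KO mouse 2, 2 of 9 passed there, as did 2526 of all 24646 genes. Between liver and iWAT no gene of the 9 passed, against 0.00406% of all genes. At an unadjusted p below 0.05, 3 of 9 did there, against 11% of all genes. For *Pex11a* that difference was -1.83 (SE 0.26, adjusted p = 0.105), and it passed where the mouse number was not used (adjusted p = 0.0289).

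Between eWAT and iWAT none of the 9 passed and 0% of all genes did, with 1 of 9 at an unadjusted p below 0.05 (*Abcd2*, 0.41) against 10.8% of all genes. The changes of *Ehhadh* in the white fats were 0.95 and 0.98, a difference of -0.03 (SE 0.31), and those of *Pex11a* 0.83 and 0.69, a difference of 0.14 (SE 0.21). Between iWAT and BAT none of the 9 passed and 0% of all genes did, with 5 of 9 at an unadjusted p below 0.05 against 9.58% of all genes. Each tissue enters 3 of these 6 comparisons, so they are not independent of each other.

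**Figure D3:**
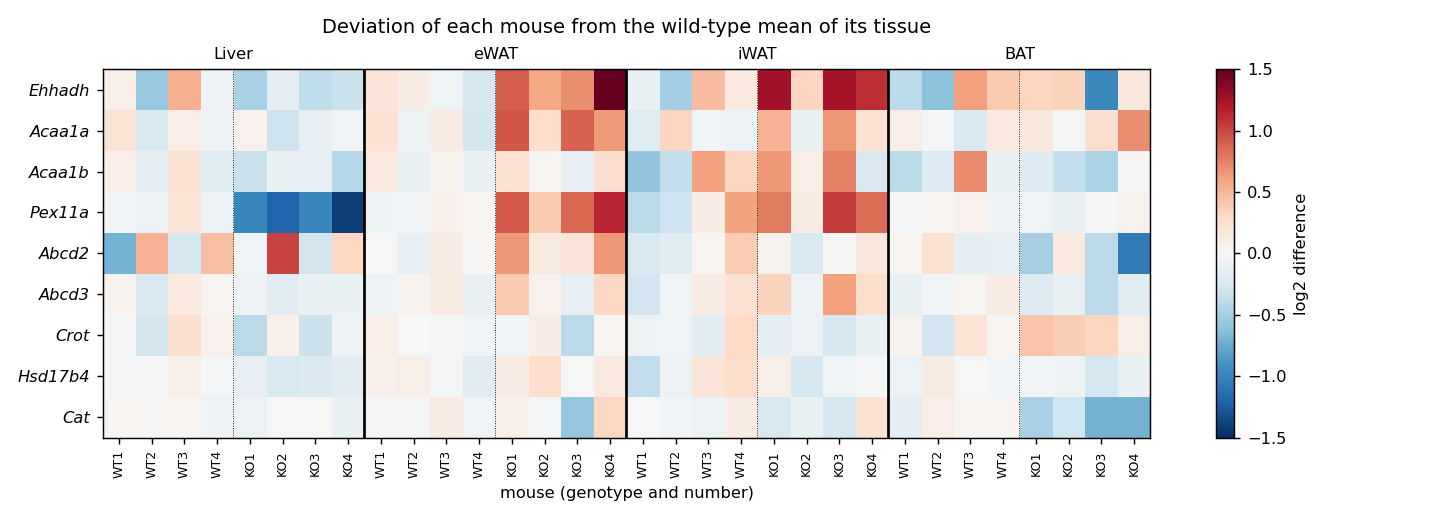
Difference of each mouse from the WT mean of its tissue on the log2 scale (colour, red above and blue below, saturated beyond 1.5) for the 9 genes (rows) and the 32 arrays (columns). The *Pex11a* row is blue in all 4 KO livers and red in all 4 KO eWAT samples, and KO mouse 2 is the palest of the KO mice for *Ehhadh* and *Pex11a* in both white fats.

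How far the 9 genes varied together across mice differed by tissue. After the group mean was removed, the median Pearson correlation over their 36 pairs was 0.283 in liver, 0.432 in eWAT, 0.434 in iWAT and 0.086 in BAT, each over 8 arrays that share normalisation. It was positive in 24, 30, 29 and 20 of the 36 pairs. These are descriptions, since pairs share genes and arrays. Per mouse, the median deviation of the 9 genes from the WT mean was lowest in BAT of KO mouse 3 at -0.40 and highest in iWAT of KO mouse 3 at 0.61. The genes whose pattern over all 32 arrays was most like the mean of the 9 genes (Pearson r of deviations from the tissue mean) were *Cpt2*, the inner carnitine transferase of mitochondria, at 0.912, *Retsat* at 0.884, *Fitm2* at 0.866, *Clpb* at 0.853 and *Agpat9* at 0.85. *Cpt2* changed by -0.28 in liver, 0.54 in eWAT, 0.54 in iWAT and -0.35 in BAT, none of which passed. In eWAT, where 4.57% of all genes rose, *Retsat* rose by 0.77 (adjusted p = 0.0290), *Fitm2* by 0.73 (0.0123) and *Agpat9* by 1.20 (0.0382). *Clpb* changed there by 0.44 (adjusted p = 0.125), and none of these genes passed in the other tissues.

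Other peroxisomal genes and their regulators were described from lists fixed by name. In eWAT the calls in these lists depended on single arrays, as did the calls over all genes. Of all 24646 genes, 1126 rose with all arrays, 380 without WT mouse 2 and 406 without WT mouse 4. Without KO mouse 1, 2 or 4 the number was 587, 1924 or 593. When single arrays were omitted, the number that rose ran from 0 to 9 of the 27 other peroxisomal oxidation genes (3 with all arrays, 0 without WT mouse 2 or 4, 9 without KO mouse 2), and 2 or 3 fell. It ran from 0 to 2 of the peroxins (0 without WT mouse 4 or KO mouse 4), from 0 to 3 of the other peroxisomal proteins, of which 0 to 2 fell, and from 0 to 2 of the PPAR receptors and partners (none of either list rose without WT mouse 2 or 4). It ran from 2 to 7 of the mitochondrial genes (2 without WT mouse 2, WT mouse 4 or KO mouse 1). With the methods' t-test after adjustment no gene of these lists passed in eWAT, against 0.154% of all genes. Of 27 other genes of peroxisomal fatty acid oxidation, none passed in liver, with a median of -0.08. The smallest p there belonged to *Acot8*, a peroxisomal acyl-CoA thioesterase (-0.55, adjusted p = 0.0616), and *Nudt19*, which cleaves CoA (-0.26, adjusted p = 0.209). With dim genes left out, 1 of 25 fell in liver, where 252 of 12323 genes passed. In eWAT 3 of the 27 rose and 2 fell, with a median of 0.19, where 4.57% of all genes rose and 10.7% fell. *Eci3*, an enoyl-CoA isomerase, rose by 1.58 (SE 0.34, adjusted p = 0.0171), *Phyh*, which starts alpha-oxidation of phytanic acid, by 0.78 (SE 0.17, adjusted p = 0.0163) and *Crat*, the carnitine acetyltransferase, by 0.36 (SE 0.09, adjusted p = 0.0268). Among those that fell, *Acot8* fell by 0.46 (SE 0.08, adjusted p = 0.0103).

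Among 15 other peroxins, the proteins that build peroxisomes, none passed in liver (median -0.06), where *Pex11g*, a relative of *Pex11a*, changed by 0.24 (adjusted p = 0.242). In eWAT *Pex5*, the import receptor for matrix proteins, rose by 0.54 (SE 0.14, adjusted p = 0.0296) and *Pex6*, part of the complex that recycles it, by 0.47 (SE 0.11, adjusted p = 0.0223), with a median of 0.05 over the list. Of 18 other peroxisomal proteins none passed in liver, where *Agxt*, which detoxifies glyoxylate, changed by 0.65 (adjusted p = 0.135) and the membrane protein gene *Pxmp4* by -0.27 (adjusted p = 0.149), with a list median of -0.01. In eWAT *Pxmp2*, a membrane channel, *Ephx2*, the soluble epoxide hydrolase, and *Lonp2*, the peroxisomal protease, rose by 0.95, 0.59 and 0.53 (adjusted p = 0.0216, 0.0266 and 0.0163). *Agps*, an enzyme of ether lipid synthesis, fell by 0.51 (adjusted p = 0.0380), and the list median was 0.05.

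Of 9 PPAR receptors and partners none passed in liver, where *Pparg* changed by -0.92 (SE 0.19, adjusted p = 0.0624), *Ppargc1b* by 0.28 (adjusted p = 0.319) and *Ppara* by -0.13 (adjusted p = 0.603), with a list median of -0.03. In liver 1 gene of this list fell without WT mouse 1, without KO mouse 2 or with dim genes left out. Of all 24646 genes, 127 passed without WT mouse 1 and 300 without KO mouse 2, and 252 of 12323 did with dim genes left out. In eWAT *Pparg*, the receptor that drives fat cell formation, rose by 0.61 (SE 0.14, adjusted p = 0.0203), *Ppara* by 0.49 (SE 0.11, adjusted p = 0.0205) and *Rxrb* by 0.37 (SE 0.10, adjusted p = 0.0416), with a median of 0.37.

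Mitochondrial beta-oxidation offers a comparison with the sister pathway. Of its 17 measured genes 1 fell in liver, *Eci1* (-0.47, SE 0.09, adjusted p = 0.0396), and the median was -0.22. Of the 17 changes 14 were negative and 3 positive. All KO values were below all WT values in 7 of the 17, as in 4.16% of all genes, and above them in 1 (3.62%). At an unadjusted p below 0.05 in limma, 12 of the 17 passed in liver, as did 13.3% of all genes. After adjustment none passed in liver with quantile normalisation, with a replicate block or with the methods' t-test. Nor did any without WT mouse 1, 3 or 4 or without KO mouse 1, 3 or 4. In eWAT 4 rose, namely *Echs1* by 1.00, *Etfb* by 0.66, *Eci1* by 0.61 and *Etfa* by 0.53 (adjusted p = 0.0187, 0.00987, 0.0292 and 0.0103), and *Cpt1a*, the outer carnitine transferase, fell by 1.22 (adjusted p = 0.0136), with a median of 0.28. With quantile normalisation 9 of these genes rose in eWAT, as did 9 of the 27 other peroxisomal oxidation genes and 4 of the 15 peroxins. Over all genes 7.43% rose in that setting.

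In iWAT and BAT no gene of these 5 lists passed. In iWAT the list medians were 0.08 for the other peroxisomal oxidation genes, 0.06 for peroxins, 0.06 for other peroxisomal proteins, 0.10 for PPAR receptors and partners and 0.32 for mitochondrial beta-oxidation. The smallest adjusted p in that tissue was 0.221, shared by *Pex26* (0.32), *Idh1* (0.48), *Acadvl* (0.85) and *Acadl* (0.60). In BAT the medians in the same order were -0.05, -0.08, 0.01, -0.26 and -0.07. The smallest p in the BAT lists were those of *Acsl1* (-0.36, adjusted p = 0.142), *Pex16* (-0.42, adjusted p = 0.126), *Pxmp2* (0.50, adjusted p = 0.108), *Ppargc1a*, the coactivator of mitochondrial and brown fat genes (-1.14, adjusted p = 0.130), and *Slc25a20* (-0.38, adjusted p = 0.142).

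**Figure D4:**
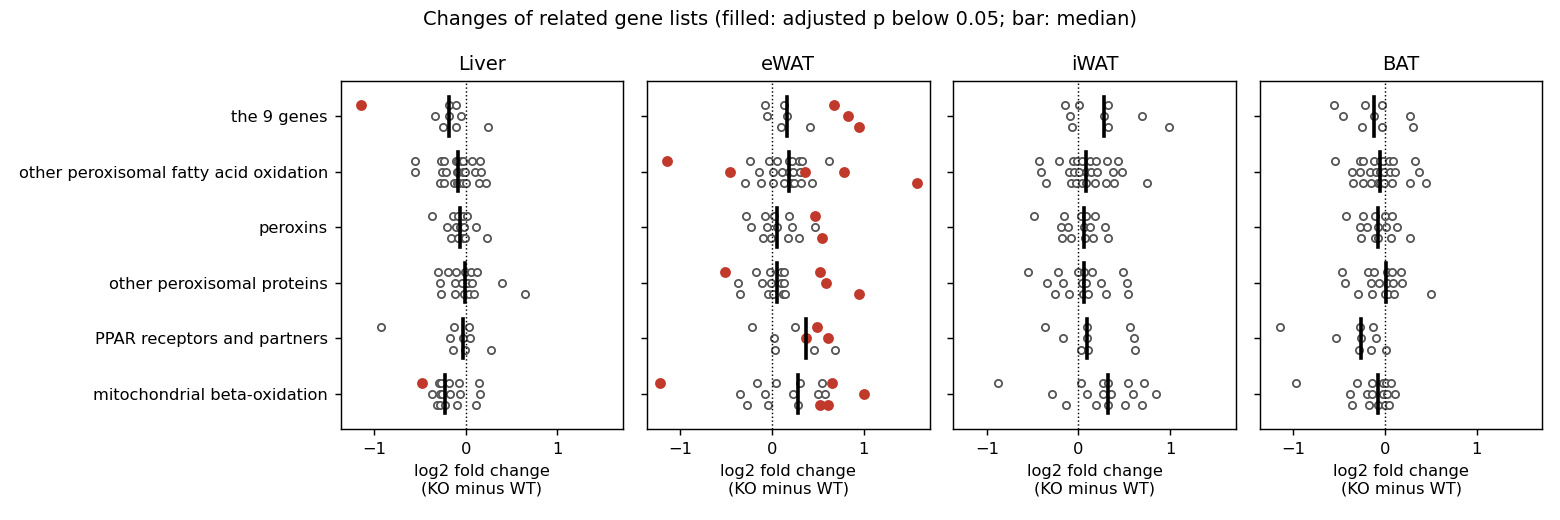
Log2 fold change, KO minus WT (x axis), of the 9 genes and of 5 related gene lists (rows) in each tissue, with 1 point per gene, filled red where the adjusted p was below 0.05, and a black bar at the list median. Filled points lie in liver and eWAT only, among them 3 of the 9 genes in eWAT, and the eWAT lists hold points filled on both sides of 0.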

How the data were processed

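RNA from liver, eWAT, iWAT and BAT (100 ng per array) was labelled with biotin and hybridised to Affymetrix Mouse Gene 2.1 ST arrays. The authors deposited log2 expression values, with each tissue in a table of its own and 1 value per gene symbol, already normalised by a method not given in the sources used here. Array medians ranged from 3.00 to 3.06 (liver), 3.13 to 3.18 (eWAT), 3.65 to 3.73 (iWAT) and 2.82 to 2.86 (BAT). Removing 1 or 2 unnamed or spreadsheet-altered entries per tissue left 24646 genes, and 840 symbols were averages by the authors. No raw array data were used, so the number of mice limits the precision. The name of 1 table gives only a short form of visceral fat. It was taken as eWAT, the only visceral depot of the series, and the other 3 were named for their tissues. The authors' comparison columns were not used.

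KO and WT mice were compared within each tissue with limma 3.58.1 in R 4.3.3, with Benjamini-Hochberg adjustment over all genes of the table and a threshold of 0.05. Exact permutation tests of single values were two-sided, over 70 relabelings. Differences between tissues were tested with limma on the difference within each mouse number. The labels repeat mouse numbers across tissues, and whether a number is the same animal is not stated. The p-values measure the spread between these mice. The scripts were tested on simulated data. Start-site windows came from RefSeq and were searched with Biopython 1.88, and figures were drawn with matplotlib 3.10.9.

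The 9 genes, the gene lists and the marker lists were chosen with earlier results of these data known, so no count over them is independent support. Genes named are the 9 genes, *Gpr146*, per list and tissue up to 5 genes with the largest change among those called without overlap, or the 2 with the smallest p where none was called, and the 5 genes most like the mean of the 9. Some genes that this rule names are not reported here. *Ppara* in liver and the second and later genes at a shared smallest p were named after their values were seen, as were the marker genes. *Pex2*, *Pex11g* and *Adgre1* were matched by older symbols, and *Cpt1b* was not matched. Blocks for lymphocyte-rich arrays (iWAT WT mice 1 and 2, KO mice 2 and 4) and muscle-rich arrays (BAT WT mice 2 and 3, KO mouse 2) were added after seeing the data. The cut was a B-cell or muscle marker mean above 5. The other alternatives were quantile normalisation, equal array medians, a trended and robust prior, array weights, a filter on dim genes that all 9 genes passed, a replicate block, the methods' t-test and each array left out.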

Additional observations from a re-analysis of the deposited data

Results flagged for a closer look

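Of 72 groups of 4 mice (9 genes, 4 tissues, both genotypes), 5 held a mouse set apart from the other 3, where chance flags about 1 group in 20. In liver these were *Pex11a* in WT mouse 3 (7.65, the others 7.35 to 7.39), *Hsd17b4* in WT mouse 3 (9.63, the others 9.51 to 9.52) and *Cat* in WT mouse 4 (10.91, the others 11.01 to 11.02). *Ehhadh* was set apart in iWAT of KO mouse 2 (5.74, the others 6.53 to 6.69) and in BAT of KO mouse 3 (6.67, the others 7.79 to 7.96).

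The change with genotype differed between tissues in 5 tests. Between liver and eWAT, the difference was -1.97 for *Pex11a*, -1.29 for *Ehhadh* and -0.78 for *Acaa1a*. *Pex11a* also differed between liver and BAT (-1.11) and between eWAT and BAT (0.86).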

How the results depend on the processing

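Of the 9 genes, the number called in eWAT was 3, and it was 0 with the methods' t-test after adjustment, 5 with quantile normalisation and between 1 (without WT mouse 2 or 4) and 4 (without KO mouse 2) when arrays were left out. Of all 24646 genes, 1126 were called upward there, 19 with the adjusted t-test and 1830 with quantile normalisation. Without WT mouse 2, WT mouse 4 or KO mouse 2 the number was 380, 406 or 1924. In liver 1 was called, 0 with the adjusted and 2 with the unadjusted t-test, against 163, 2 and 2901 of all genes. In iWAT none was called, 1 without the lymphocyte-rich arrays, 1 with the unadjusted t-test and 0 to 1 when arrays were left out (1 without KO mouse 2). Of all genes, 0 were called there, 916 without the lymphocyte-rich arrays, 3167 with the unadjusted t-test and 227 without KO mouse 2. In BAT none was called, 2 with the unadjusted t-test, against 7 and 2803 of all genes. Between liver and eWAT 3 of the 9 genes had different changes, and 4 did with quantile normalisation. With arrays left out it was 2 or 3 (2 without WT mouse 1, 3 or 4 or KO mouse 1 or 4). Over all genes 2062 differed in that pair, 2079 with quantile normalisation and 918 to 3130 with arrays left out. Genes with different changes numbered 2 with quantile normalisation and 1 to 2 with arrays left out between eWAT and BAT, 0 to 1 with arrays left out between liver and BAT, and 1 with no replicate block and 0 to 2 with arrays left out (2 without KO mouse 2) between liver and iWAT. Over all genes, 1729 differed between eWAT and BAT with quantile normalisation and 2526 without KO mouse 2. Between liver and BAT 2 to 43 did with arrays left out. Between liver and iWAT 29 did with no replicate block and 99 without KO mouse 2. The median change in eWAT was 0.33 with quantile normalisation. The causes were not tested.

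Directions that turned belonged to genes that did not pass. With quantile normalisation these were *Crot* (0.10 in eWAT, 0.0272 in iWAT), *Hsd17b4* in iWAT (0.061), and *Ehhadh* (0.0151) and *Pex11a* (0.0406) in BAT. Array weights turned *Cat* in eWAT (0.0696) and *Hsd17b4* in iWAT (0.0065), and equal medians turned *Abcd2* in iWAT (-0.024). Lymphocyte-rich arrays alone turned *Acaa1a* (-0.0116), *Cat* (0.0816) and *Hsd17b4* (0.0812), and leaving them out *Abcd2* (-0.18). In BAT, leaving out muscle-rich arrays turned *Acaa1b* (0.043) and *Pex11a* (0.0412), and the muscle block *Ehhadh* (0.016). With arrays left out in turn, changes ran from -0.0789 to 0.13 for *Abcd2* in iWAT, -0.0072 to 0.42 for *Abcd2* in liver, -0.18 to 0.12 for *Cat* and -0.14 to 0.0314 for *Crot* in eWAT, -0.24 to 0.27 for *Ehhadh* in BAT and -0.19 to 0.0199 for *Hsd17b4* in iWAT.

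Deviations of same-numbered WT and KO mice had r from -0.385 to 0.669 (iWAT) and from -0.057 to 0.222 (other tissues). Those of mice with different numbers had r from -0.633 to 0.654 (iWAT) and from -0.372 to 0.444 (other tissues). With 4 mice per group, these values cannot decide whether mouse numbers pair WT with KO mice. A replicate block left the number of called genes at 3 in eWAT, 1 in liver and 0 in iWAT and BAT.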
